A study of Caenorhabditis elegans with 4 samples.

Results

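The regions described here are the sites on chromosome II of Caenorhabditis elegans at which the transcription factor CEH-39 was recovered from embryos by ChIP-seq, the sequencing of DNA that is precipitated with a crosslinked protein. They are all rows of the study's combined region list that carry chromosome II, which gives 400 of 2515 regions (15.9%). The choice used the chromosome name and no measured value. There were 2 ChIP libraries and 2 input libraries, and input is total chromatin DNA. All came from strain OP169, which carries unc119(ed3) and the transgene wgIs169, a ceh-39::TY1 EGFP FLAG fusion together with unc119, in animals grown at 20 degrees Celsius. The transgene was introduced by bombardment and fuses CEH-39 to EGFP and FLAG, so that anti-GFP antibodies recover the tagged protein. The embryos came from a mixed population of males and hermaphrodites, and whole embryos were used, so the lists do not say in which cells a region was bound. Neither the inputs nor any library from animals without the tag were analysed here. Whether the replicates are separate cultures is not in the labels, so their differences may be technical.

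CEH-39 belongs to the ONECUT homeodomain proteins, a family that binds DNA through a cut domain together with a homeodomain. It is known as an X signal element, one of the X-linked products whose dose the early embryo reads to set sexual fate, and it acts there by repressing the switch gene xol-1. Chromosome II is an autosome, so its regions are sites away from the chromosome on which both ceh-39 and that switch gene lie. The autosomes of this species have a central part with little recombination and 2 arms that recombine more and hold more repeats. Positions are on the WormBase WS220 build. No sequence or gene annotation of that build was used, so genes, exons and promoters at these positions are not given.

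Chromosome II was of middling density. It held 26.2 regions per Mb (95% exact Poisson interval 23.7 to 28.9) over a span of 15.3 Mb, against 24.9 per Mb on the other 5 chromosomes pooled. The ratio was 1.05 (95% exact interval 0.943 to 1.17) with p = 0.36 in a two-sided exact binomial test. This test and all intervals given here take regions as independent, which neighbouring regions are not, and cover counting error only. Read depth is unknown, because the lists hold no read counts.

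The pooled value averages chromosomes that differ widely. II was less dense than I (ratio 0.744, 0.652 to 0.848, adjusted p of the exact binomial test 1.98e-05) and than III (0.760, 0.663 to 0.870, adjusted p of the exact test 9.14e-05). It was denser than V (1.81, 1.56 to 2.11, adjusted p of the exact test 2.06e-14) and than IV (1.20, 1.04 to 1.38, adjusted p of the exact test 0.0168). Against X the ratio of 1.09 (0.950 to 1.25) did not pass (adjusted p of the exact test 0.209). These p-values are two-sided and Benjamini-Hochberg adjusted over the 5 chromosomes.

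The order of II relative to IV and X was not the same in the replicate lists. Replicate 1 held 4411 regions on II (289 per Mb) and replicate 2 held 2928 (192 per Mb). Over all chromosomes these lists held 30000 and 19048 regions, against 2515 combined ones. Few of their low ranks on II overlapped a combined region. For replicate 1 this was 8.45% at ranks 2516 to 10000 and 1.27% at ranks 19049 to 30000. For replicate 2 it was 11.9% at ranks 2516 to 10000 and 4.83% at ranks 10001 to 19048. The cutoffs behind both lists are not given, so their densities need not count bound sites. The ratio of II to IV was 0.908 in replicate 1 and 1.06 in replicate 2, and that of II to X was 1.13 and 0.964. II stayed below I and III and above V in both (0.777, 0.746 and 1.33 in replicate 1, and 0.869, 0.862 and 1.32 in replicate 2). Against the other 5 chromosomes pooled the ratio was 0.960 in replicate 1 (exact binomial p = 0.0114) and 1.01 in replicate 2 (exact binomial p = 0.607).

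**Figure D1:**
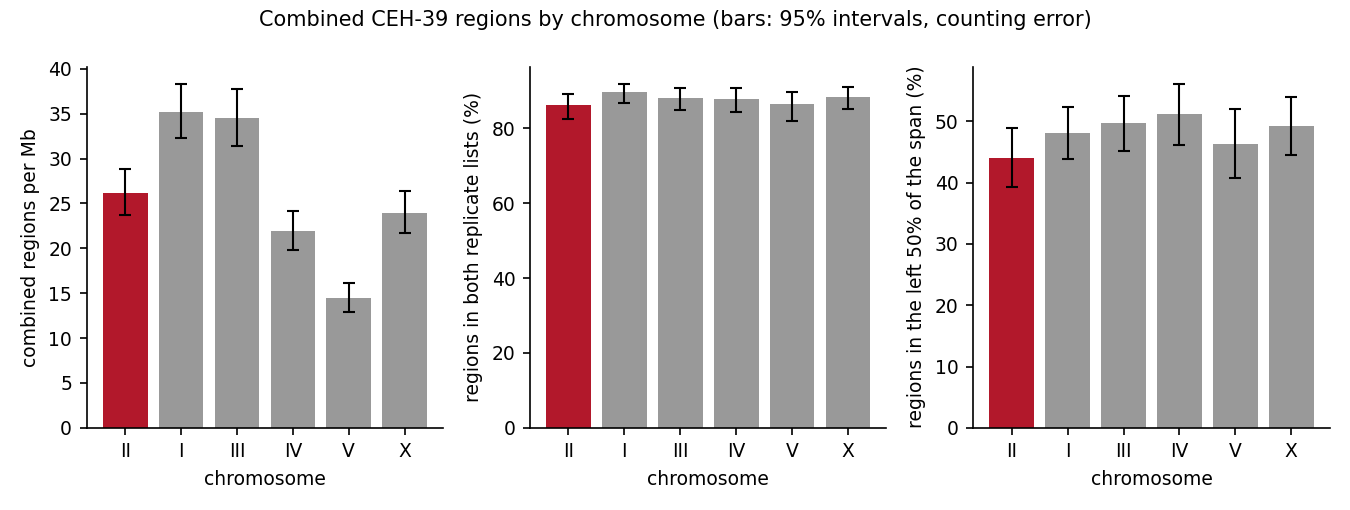
Combined CEH-39 regions on chromosome II (red) and on the other chromosomes (grey), as regions per Mb, as the share that overlaps a region of both replicates, and as the share in the left 50% of the chromosome. Bars carry 95% intervals (exact Poisson, then Wilson) for counting error. II has 26.2 regions per Mb, between the denser I and III and the sparser V, and its share in both replicates is 86.3%.

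The main feature of the profile along II was a sparse left part. In full windows of 500 kb, the list held 3 to 28 regions per window with a median of 11 (mean 13.1 ± 5.69, SD, n = 30 windows). The first 9 windows, which cover 4.5 Mb, held 8.22 ± 3.67 regions (SD, n = 9 windows), against 15.1 ± 5.15 in the other 21 windows (SD, n = 21 windows). Of these 9 windows, 8 were below the chromosome's mean, and the exception was the window at the left end, with 14 regions. In all, the left 4.5 Mb held 74 regions (16.4 per Mb) and the following 10.5 Mb held 318 (30.3 per Mb). This border was set after the profile was seen, so no test is given for it.

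The replicate lists did not share this step to the same extent. Replicate 2 held 84.4 ± 22.4 regions in the first 9 windows, against 101 ± 18.1 in the other 21 (SD over windows). The mean of replicate 1 went the other way, with 153 ± 42.2 in the first 9 windows against 139 ± 44.2 in the other 21. Of the first 9 windows, 7 were below the replicate 2 mean of the chromosome and 5 below the replicate 1 mean. The window at the left end held 236 replicate 1 regions. The sparse left part was thus seen in the combined list, to a lesser degree in the whole replicate 2 list, and not in the whole replicate 1 list. These lists differ in length on II (400, 2928 and 4411 regions). Their profiles were not compared at equal length, so the best-ranked regions of a replicate may be placed otherwise.

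The same stretch was compared across chromosomes as the first 30% of each span. On II it held 19.0% of the combined regions (95% Wilson interval 15.5 to 23.1%), against 24.2% on III, 25.8% on V, 26.8% on I, 29.5% on IV and 31.5% on X. The interval of II overlapped those of III and V. In replicate 2 the share on II was 26.7%, against 26.6 to 30.8% on the other chromosomes, and in replicate 1 it was 32.2%, against 33.2 to 34.6%.

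**Figure D2:**
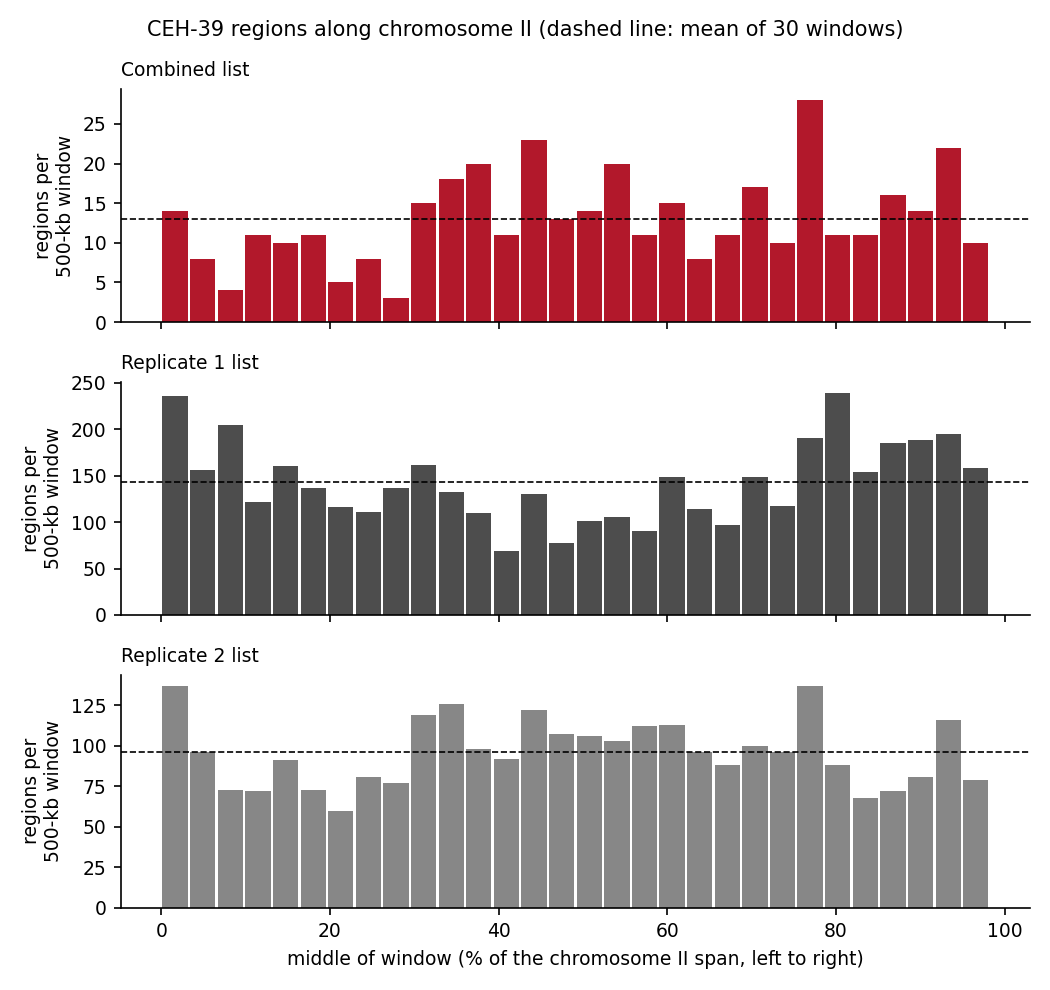
Regions per full 500-kb window along chromosome II (x axis, middle of the window as a percentage of the span) in the combined list, replicate 1 and replicate 2, with dashed lines at the mean of 30 windows. The combined list is low over its first 9 windows and peaks at 28 regions, while replicate 1 is high towards both ends and low in the middle.

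In successive parts of 20% of the span from left to right, the combined list held 19.6, 22.3, 32.4, 27.8 and 28.8 regions per Mb. Replicate 2 held 182, 183, 223, 202 and 169 per Mb, and replicate 1 held 339, 246, 203, 287 and 369 per Mb. The middle part was therefore the densest in the combined list and in replicate 2 and the sparsest in replicate 1. The right end differed between the combined list and replicate 2, since the last part was the second densest in the combined list and the sparsest in replicate 2.

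The split into centre and arms was weak on II. The central 50% of the chromosome held 53.3% of its combined regions (48.4 to 58.1%), against 57.9% on the other 4 autosomes pooled. The difference of -4.68 percentage points had a 95% Newcombe interval of -10.1 to 0.706, which includes 0. In replicate 2 the central share was 53.8%, against 54.5% on the other 4 autosomes, and in replicate 1 it was 40.2% against 41.6%, with intervals of the difference that also include 0 (-2.67 to 1.33 and -3.01 to 0.173 points). The left 50% of the span held 44.0% of the combined regions of II (39.2 to 48.9%), against 49.0% on the other 5 chromosomes, and the interval of that difference includes 0 as well (-10.2 to 0.357 points). In replicate 1 the left share was 47.0% on II, against 49.9% on the other 5 chromosomes, a difference of -2.94 points whose interval does not include 0 (-4.53 to -1.34 points). In replicate 2 it was 49.2% on both sides, with an interval of -1.97 to 1.97 points.

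The densest window ran from 11500001 to 12000000 and held 28 combined regions, of which 21 overlapped both replicates and 13 had the highest score of the list. It also held 191 replicate 1 regions and 137 replicate 2 regions, against chromosome means of 143 and 96.0. The next were the window at 6500001 to 7000000, with 23 combined, 130 replicate 1 and 122 replicate 2 regions, and that at 14000001 to 14500000, with 22, 195 and 116. All 3 windows were above the replicate 2 mean, and the second of them was below the replicate 1 mean.

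The 3 emptiest windows lay in the left part. Its border was set after this profile was seen, so their place there is not a separate result. The window at 4000001 to 4500000 held 3 combined regions, that at 1000001 to 1500000 held 4 and that at 3000001 to 3500000 held 5. Their replicate 1 counts were 137, 205 and 116 and their replicate 2 counts 77, 73 and 60. All 3 were below the replicate 2 mean, and the window with 4 combined regions was well above the replicate 1 mean.

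Window by window, the combined profile was closer to that of the whole replicate 2 list than to that of the whole, longer replicate 1 list. Over the 30 windows the Pearson correlation of combined counts was 0.681 with replicate 2 (Spearman's rho 0.647) and 0.128 with replicate 1 (rho 0.0963). Between the replicates it was 0.104 (rho -0.00813). These are descriptions across windows of one chromosome that share the same libraries, and no test is given. On the other chromosomes the correlation of the combined list was 0.483 to 0.766 with replicate 2 and -0.478 to 0.491 with replicate 1.

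The unevenness of counts between windows was measured as their variance over their mean, which is 1 for regions placed independently at one rate. On II the variance of the 500-kb counts was 2.48 times the mean, against 0.965 on X, 1.28 on IV, 1.40 on I, 1.75 on V and 1.83 on III. The measure also rises with the mean count when the SD keeps the same share of the mean. The mean was 13.1 on II (SD 5.69) and 7.29 on V (SD 3.57), so this order does not rank the chromosomes by relative spread. The place of II at the top of this order also depended on the window. With 250-kb windows the value was 1.85 on II against 1.35 to 1.72 elsewhere, whereas with 1-Mb windows it was 2.33 on II against 2.39 on IV.

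The longest empty stretches of II lay mostly on its left side, while those over 100 kb as a whole did not. Of the 10 longest stretches without a combined region, 8 had their middle in the left 50% of the span, against 3 to 7 of the 10 longest on each other chromosome. The longest ran from 3119336 to 3502592 (383 kb), and the next followed closely at 3547703 to 3896959 (349 kb). The third lay at 1042596 to 1320549 (278 kb), the fourth at 1862961 to 2130615 (268 kb) and the fifth at 4044794 to 4299211 (254 kb). Stretches longer than 100 kb numbered 38 on II, of which 17 had their middle in the left 50% of the span. They made up 39.8% of its span, against 18.8% on III, 21.1% on I, 35.9% on X, 44.0% on IV and 60.8% on V.

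None of these stretches was empty in the replicates. The longest held 67 replicate 1 regions and 32 replicate 2 regions that lay wholly inside it, or 175 and 83.5 per Mb, below the chromosome's densities of 289 and 192 per Mb. The best of them ranked 1459 in replicate 1 and 919 in replicate 2. The second held 45 regions of each replicate (129 per Mb for both). The fourth held 51 and 32 and the fifth 64 and 33, again below the chromosome's density in both lists.

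The third stretch was different in replicate 1. It held 119 replicate 1 regions, or 428 per Mb, which is above that list's density on II, and 42 replicate 2 regions, or 151 per Mb, which is below it. Of the 119, 32 overlapped a replicate 2 region, against 1693 of all 4411 replicate 1 regions on II (38.4%). Of those 1693 shared regions, 1257 had no counterpart in the combined list, so the lack of one inside this stretch was not unusual. The highest rank inside the stretch was 1571 in replicate 1 and 984 in replicate 2. Its edges were the combined region of rank 462 at 1042132 to 1042595 and that of rank 135 at 1320550 to 1320730, both found in both replicates. The ninth longest stretch of II, at 420848 to 602987, held 604 replicate 1 and 275 replicate 2 regions per Mb. Both values were above the densities of those lists on II. Such stretches also occurred elsewhere, as the eighth longest of III held 607 replicate 1 regions per Mb, against 387 on III as a whole.

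**Figure D3:**
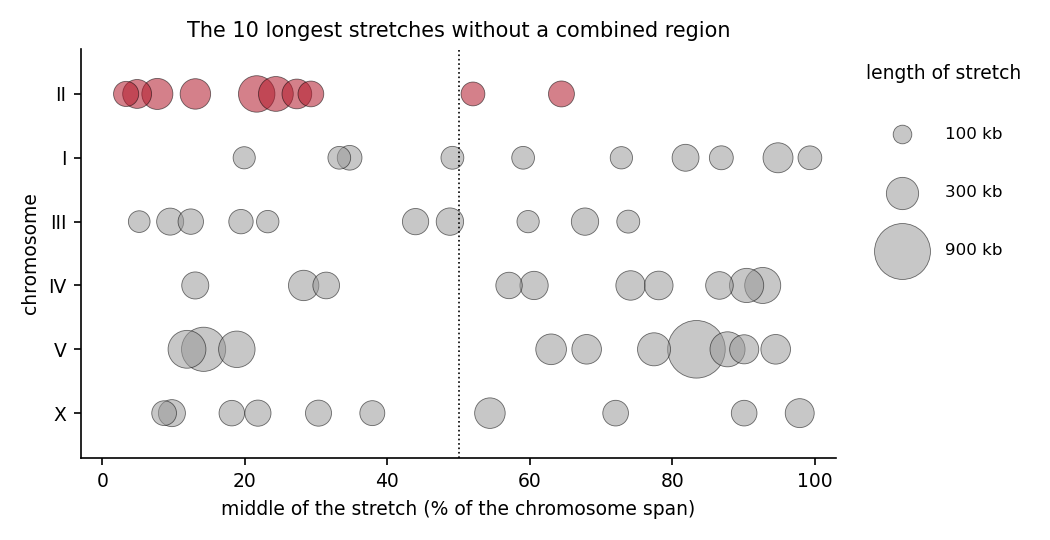
The 10 longest stretches without a combined region on chromosome II (red, top row) and on each other chromosome (grey), placed by the middle of the stretch as a percentage of the span, with the area of each circle proportional to length. On II, 8 of the 10 lie left of the dotted line at the chromosome's midpoint.

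Neighbouring regions on II had a median centre-to-centre spacing of 20.2 kb (95% order-statistic interval 15.6 to 24.6 kb), with quartiles of 6.36 and 52.3 kb. The median was 15.8 kb on III, 17.1 on I, 26.1 on X, 27.3 on IV and 42.5 on V. The interval of II overlapped those of I (14.1 to 19.9 kb), III (14.0 to 18.8 kb), X (20.6 to 29.7 kb) and IV (21.7 to 31.7 kb) but not that of V (34.9 to 50.0 kb). Of the 399 spacings on II, 42 (10.5%, Wilson interval 7.88 to 13.9%) were at most 2 kb, against 4.65% on V and 10.1 to 11.5% on the other 4 chromosomes.

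**Figure D4:**
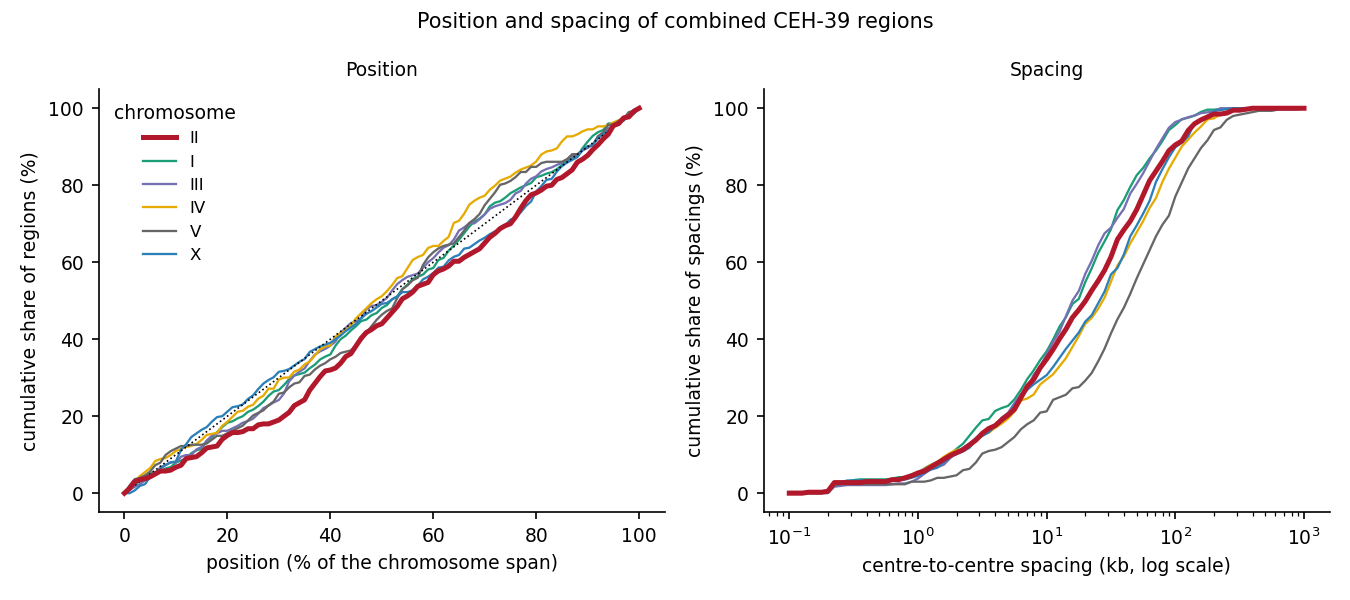
Cumulative share of combined regions by position (left, percentage of the chromosome span, dotted line for even placement) and of centre-to-centre spacings (right, kb, log scale) for chromosome II (thick red line) and the other chromosomes. The curve of II starts at or above the dotted line, with 3.5% of the regions at 3% of the span, then runs below it and reaches 19.0% at 30% of the span, and around the median its spacing curve lies between those of I and III on one side and X and IV on the other.

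Joining neighbours whose centres were at most 2 kb apart gave 33 groups on II, which held 75 regions (18.8%, Wilson interval 15.2 to 22.9%). The share was 21.1% on I, 19.6% on III, 20.4% on IV and 19.5% on X, all within that interval, and 8.94% on V. Of the groups on II 7 had 3 or more regions and the largest had 4. The first group of 4, at 11634042 to 11637616, lay in the densest window and had ranks 179, 1010, 1897 and 2171, of which 3 were found in both replicates. The second, at 9059180 to 9063779, had ranks 946, 1497, 2144 and 2293, of which 3 were also found in both. The best-ranked group of 3, at 14248034 to 14251760, had ranks 209, 1639 and 1977 and lay in the third densest window. These 3 groups mixed regions from different parts of the ranking, whereas the pair at 13335010 to 13335695 had ranks 2038 and 2043.

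Most regions of II were found in both replicates. Of the 400, 345 (86.3%, Wilson interval 82.5 to 89.3%) overlapped a region of each replicate by at least 1 bp, against 88.0% of all 2515 combined regions. The share on the other 5 chromosomes was 88.3%, and the difference of -2.07 percentage points had a Newcombe interval of -6.01 to 1.28, which includes 0. The sources used here do not give the making of the combined list. Should it derive from these same libraries, part of the overlap follows from that.

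Overlap with replicate 1 alone was nearly complete. On II 394 regions (98.5%, 96.8 to 99.3%) overlapped replicate 1, against 99.4% of all combined regions and 99.6% of those on the other 5 chromosomes. The difference of -1.07 points had a Newcombe interval of -2.82 to -0.179. It rests on 6 regions of II and 9 of the 2115 others. With replicate 2 the overlap on II was 350 regions (87.5%, 83.9 to 90.4%), against 88.5% of all combined regions.

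The regions of II seen in 1 replicate were mostly seen in replicate 1. There were 49 in replicate 1 only (12.3%, against 11.4% of all combined regions). Another 5 were in replicate 2 only (1.25%, against 9 of 2115 or 0.426% on the other 5 chromosomes). The highest-ranked regions found in replicate 1 only were at 12462171 to 12462634 (combined rank 433, replicate 1 rank 267) and at 11537302 to 11537417 (ranks 485 and 295). They were followed by regions at 14437835 to 14438298 (ranks 587 and 503), 13908492 to 13908955 (ranks 709 and 401) and 5714748 to 5715211 (ranks 906 and 534). Of these 5, 4 lay in the right 50% of the span, which held 224 of all 400 combined regions of II.

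One region overlapped neither replicate, and no region of the other 5 chromosomes did so. It lay at 6609322 to 6609785, with combined rank 2099. The nearest replicate 1 region was 11305 bp away and the nearest replicate 2 region 2136 bp away. The 5 regions found in replicate 2 only lay at 39.7 to 56.7% of the span, and the one of highest rank (1057) was at 6600940 to 6601403. The central 50% of the span held 53.3% of all combined regions of II. The middle 20% was the sparsest such part in replicate 1, at 203 per Mb against 289 on II as a whole. The place of these 5 regions is therefore not a separate result.

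Support by both replicates was highest at the best ranks and lowest at the last ranks, on II and elsewhere. All 16 regions of II within the best 100 ranks were in both replicates, as were 44 of 46 at ranks 101 to 500 and 73 of 79 at ranks 501 to 991. At ranks 992 to 1500 the count was 80 of 97 (82.5%), at 1501 to 2000 it was 69 of 80 (86.3%), and at 2001 to 2515 it was 63 of 82 (76.8%). The shares on the other 5 chromosomes, from the best class to the last, were 98.8, 98.9, 92.7, 87.9, 84.5 and 77.6%. That at ranks 101 to 500 lay just above the Wilson interval of II (95.7%, 85.5 to 98.8%), where the difference rests on 2 regions of II and 4 of the 354 others, and the rest lay within the interval of II.

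By position, both replicates supported 86.7% of the regions in the first 20% of the span, 91.2% in the second such part, 85.9% in the third, 82.4% in the fourth and 86.4% in the last. These intervals overlapped one another (the lowest was 72.9 to 89.0% and the highest 82.1 to 95.9%).

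Ranks come from the authors' score, which has no stated unit. The score is tied at its highest value in 991 regions, so the order among these rests on the number in the region's name. On II 141 regions (35.3%, Wilson interval 30.7 to 40.1%) had that score, against 39.4% of all combined regions and 38.1 to 42.6% on each other chromosome. The best 100 ranks held 16 regions of II, close to its 15.9% share of the list, and the best 500 held 62 (12.4%, exact binomial interval 9.64 to 15.6%). The best 500 ranks of replicate 1 and of replicate 2 each held 64 regions of II (12.8%), against 14.7% and 15.4% of those lists.

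The highest-ranked region of the whole list was on II, at 11979639 to 11980058, within the densest window. It overlapped regions of rank 4 in replicate 1 and rank 3 in replicate 2. A second combined region, of rank 2274, began 2 bp beyond its end and ran to 11980354. It overlapped the same replicate 1 region of rank 4, and in replicate 2 a region of rank 14948.

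The next 4 regions of II were also high in both replicates. They lay at 8787383 to 8787649 (combined rank 9, replicate ranks 13 and 9 in replicates 1 and 2), 10563368 to 10563655 (combined rank 10, replicate ranks 23 and 6), 2758519 to 2758818 (combined rank 15, replicate ranks 17 and 21) and 8561247 to 8561508 (combined rank 16, replicate ranks 21 and 32). The one at 2758519 is the highest-ranked region of the sparse left part.

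Among the next 10, the replicate ranks were close in the thirteenth and fourteenth and farther apart in the others. The sixth, at 13834366 to 13834661 (combined rank 46), had rank 105 in replicate 1 and rank 8 in replicate 2. The seventh, at 14154346 to 14154575 (rank 64), ranked 63 and 307. The eighth to the twelfth, at 1663648 to 1663900, 6951463 to 6951836, 873116 to 873397, 15076786 to 15077018 and 4376781 to 4376989, had combined ranks of 68 to 78. All 5 ranked 34 to 69 in replicate 1 but only 349 to 1635 in replicate 2. The thirteenth, at 5844562 to 5845025 (combined rank 89), ranked 117 and 93 in replicates 1 and 2. The fourteenth, at 8185031 to 8185257 (combined rank 92), ranked 104 and 92, and the fifteenth, at 11874647 to 11874924 (combined rank 94), ranked 84 and 318. Of these 15 regions, 4 lay in the left 4.5 Mb, which held 74 of all 400 combined regions of II.

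Most regions of II within the best 100 ranks were narrow. The usual width of a combined region is 464 bp, which 363 regions of II had, and 37 (9.25%) were narrower, against 9.50% of all combined regions. The narrow regions of II were 116 to 420 bp wide with a median of 198 bp, and the narrowest was the one at 11537302 to 11537417. Their median rank was 151, against 1404 for those of the usual width. Of the 16 regions of II within the best 100, 15 were narrow, and on the other 5 chromosomes 77 of 84 were. This does not extend to all regions with the highest score. They numbered 141 on II, and with 37 narrow regions in all, most of them had the usual width. The order among them rests on the number in the name.

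Across the 345 regions of II found in both replicates, the combined rank followed replicate 1 more closely than replicate 2. Spearman's rho was 0.868 with the best overlapping rank in replicate 1 and 0.485 with that in replicate 2, and it was 0.269 between the replicates. On the other 5 chromosomes these were 0.863, 0.454 and 0.264. They are descriptions across regions, some of which share a replicate region. The ranking thus followed replicate 1, while the density profile along II was closer to that of the whole replicate 2 list. The profiles were not compared at equal list length.

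Positions told the same order. The centre of a combined region on II lay a median of 11 bp from the centre of its replicate 1 region and 39.5 bp from that of its replicate 2 region, against 9 and 39 bp on the other 5 chromosomes. In replicate 1 the best overlapping region was within the best 2515 ranks for 349 of the 400 regions (87.3%), and in replicate 2 for 207 (51.8%). The matching shares on the other 5 chromosomes were 87.2 and 53.8%.

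**Figure D5:**
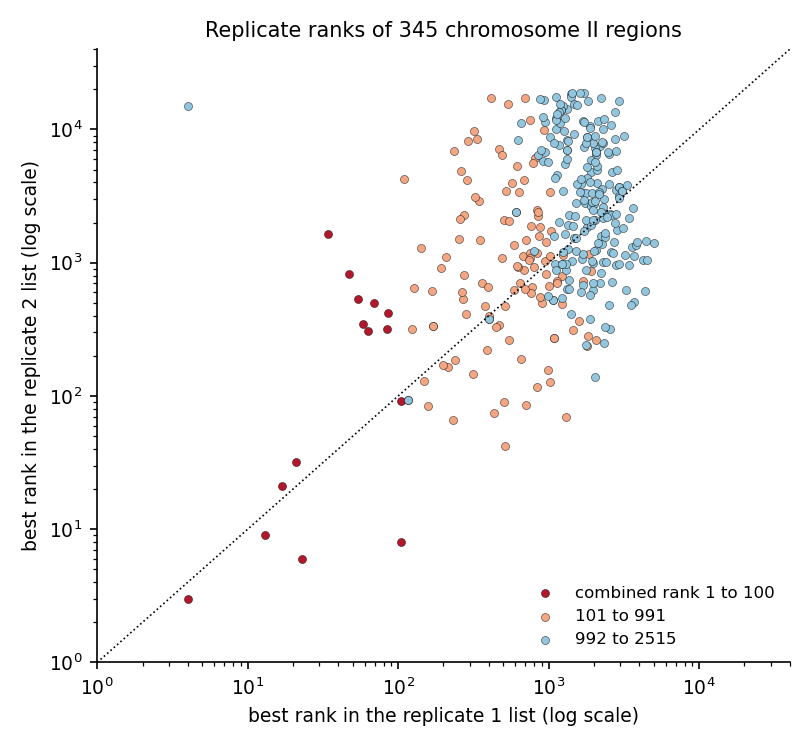
Best overlapping rank in replicate 1 (x axis, log scale) against that in replicate 2 (y axis, log scale) for the 345 combined regions of chromosome II found in both, coloured by combined rank, with a dotted line at equal ranks. The 5 best regions sit near the dotted line at ranks of 32 or better in both lists, and the spread along the y axis widens at lower combined ranks.

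The 5 largest rank differences between the replicates, among the best 500 combined regions of II, were regions with a poor rank in replicate 2. The combined rank follows replicate 1, so choosing the best combined ranks favours good replicate 1 ranks and this direction is not a result. The region at 3957406 to 3957869 (combined rank 430) had rank 321 in replicate 1 and rank 9762 in replicate 2. Those at 4901988 to 4902451 (combined rank 467) and 13976058 to 13976521 (combined rank 352) had ranks 333 and 290 in replicate 1 and 8510 and 8199 in replicate 2. The region at 5055139 to 5055602 (combined rank 269) ranked 234 and 6839, and that at 14349433 to 14349722 (combined rank 175) ranked 110 and 4259. Of the 345 regions in both, 216 had the better rank in replicate 1 and 129 in replicate 2, and the replicate 1 list is the longer of the 2. On the other 5 chromosomes these numbers were 1133 and 734 of 1868, so the direction was not particular to II.

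Between the replicate lists themselves, 1693 of the 4411 replicate 1 regions on II (38.4%, 37.0 to 39.8%) overlapped a replicate 2 region, and 1540 of the 2928 replicate 2 regions (52.6%, 50.8 to 54.4%) overlapped a replicate 1 region. The shares on the other chromosomes were 30.7 to 37.8% and 41.5 to 57.0%. Agreement was high at the top of both lists. Among the best 500 ranks, 61 of 64 replicate 1 regions and 60 of 64 replicate 2 regions on II were shared (95.3% and 93.8%), against 95.1% and 96.8% on the other 5 chromosomes. At ranks 10001 to 19048 the shares on II were 32.1% and 44.0%, against 29.1% and 41.7%. Over 965 one-to-one pairs on II the ranks had a Spearman's rho of 0.323, against 0.345 to 0.419 on the other chromosomes.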

How the data were processed

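The ChIP libraries were those titled replicates 1 and 2. Chromatin was crosslinked with 2% formaldehyde and 10% of the lysate was kept as input, per the labels' protocols. The authors deposited a score for each region, without a stated unit. The source field names SPP and the irreproducible discovery rate, and positions follow WormBase WS220, per the file headers. For the aligner, versions and thresholds, the sources used here give nothing. Scores served to rank regions inside 1 list, the number that each name carries deciding between ties.

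From the lists, densities, windows of 500 kb, spacing, empty stretches and overlaps of at least 1 bp were computed with Python 3.11.15, numpy 2.4.6, pandas 2.3.3 and scipy 1.17.1, and plotted with matplotlib 3.10.9. The density ratio, the overlap share and the joining of regions were checked on simulated data, and the Newcombe interval on a worked example. The other measures were not checked in this way. The last region end on II in the 3 lists (15274280 bp) served as its span. An exact binomial test on the spans compared densities. Shares have Wilson intervals, and differences have Newcombe intervals. Members, tests and rules were chosen with earlier results of these data known. By rule, the 15 best-ranked regions of II, its 5 longest empty stretches, its 3 densest and 3 emptiest windows, its 3 largest groups of neighbours, the 5 largest rank disagreements, the 5 best regions in 1 replicate only, those in neither and the narrowest and widest region were named. The rule was written for genes but applied to regions, since the files name none. The narrowest is named, and 363 regions share the greatest width. The alternatives were other lists, overlap rules, window widths and rank orders.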

Additional observations from a re-analysis of the deposited data

How the results depend on the processing

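The density ratio of II to the other chromosomes did not keep its direction. It was 1.05 in the combined list and 0.948 in its best-scoring 50% (exact binomial p = 0.53). In the whole, longer replicate lists it was 0.960 to 1.01, so that the direction turned in replicate 1. Alternatives chosen after seeing the data left out one chromosome at a time. The ratio was 1.16 without I (exact binomial p = 0.0109) and 1.14 without III (exact binomial p = 0.0235), the denser chromosomes, and 0.925 without V, the sparsest, and these shifts follow from what was left out. Joined loci, the other autosomes alone, the central 50% of each chromosome and leaving out IV gave 1.01 to 1.05. The share of II regions found in both replicates became 81.5% under a minimum overlap of 50% of the shorter region. It became 75.0% once each replicate list was limited to its best-scoring 50% and 44.3% once each was limited to the length of the combined list, which removes replicate regions by construction. It became 92.3% among the best-scoring 50% of combined regions. The central share was 38.5% for a central part of 1/3 of the span, which is a narrower part by construction, and 40.2 to 53.8% in the single replicate lists. The share in the left 50%, a result added after the data were seen, was 47.0 to 49.2% in them. Single lists are longer, so the median spacing was 1.61 to 3.07 kb and the longest empty stretch 63.4 to 88.0 kb. The window variance was 4.41 to 13.2 times the mean in them, and the cause was not tested. This measure rises with the mean count when the SD keeps the same share of the mean. The mean per window was 143 in replicate 1 (SD 43.4) and 96.0 in replicate 2 (SD 20.6), against 13.1 in the combined list (SD 5.69). The higher values therefore do not show that the single lists are more uneven. The best-scoring 50% of the combined list is shorter and gave a median spacing of 49.3 kb. With tied scores in file order, 0 regions of II were among the best 100, because the file is sorted by chromosome and begins with I. In the single lists that number was 13 to 16. No paired analysis was possible because only ChIP libraries have lists used here. Ties limit all ranks up to 991, and the lists hold no read counts, so no depth limit can be given.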

Other observations

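A few regions of II that were strong in the replicates have no counterpart in the combined list. They were looked for after the data were seen and are given as values. Of the 64 replicate 1 regions of II within the best 500 ranks, 63 overlapped a combined region, against 431 of 432 on the other 5 chromosomes. The exception on II lay at 11239004 to 11239197, with rank 285 in replicate 1. It overlapped a replicate 2 region of rank 181, and the nearest combined region was 14654 bp away. In replicate 2, 58 of the 64 regions of II within the best 500 overlapped a combined region, against 407 of 436 elsewhere. The strongest of the 6 without one, at 4999101 to 4999516, had rank 50 in replicate 2, overlapped no replicate 1 region and lay 16602 bp from the nearest combined region.

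Combined regions of II that overlapped each other formed 11 pairs and no larger locus. In 10 of the 11 pairs the centres were 199 to 222 bp apart, and in the remaining pair 137 bp. On the other 5 chromosomes 48 of 61 pairs had centres within 30 bp of 200 bp. Replicate 2 had no spacing on II shorter than 199 bp, and replicate 1 had 1 spacing under 100 bp, at 22.5 bp. What sets this distance was not tested.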
